A study of Chlamydomonas reinhardtii with 6 samples.

Results

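The copper-responsive genes of the unicellular green alga Chlamydomonas reinhardtii, together with the gene of the copper protein plastocyanin, were followed across 2 manganese levels. They comprised 8 genes of the 17741 in the deposited table, taken by identifier: CYC6, PCY1, CPX1, CRD1, CTH1, CTR1, CTR2 and CRR1. All 8 identifiers were found. Cultures of strain CC-4532 were grown in acetate-containing medium with 6 µM Mn, which the labels call the control, or with 1000 µM Mn, and 3 flasks were sampled per level. All 6 flasks shared an inoculum, were kept at 24 °C in constant light (about 50 µmol photons per m² per s), and were harvested in mid-logarithmic growth. No allele, deletion or drug was part of the comparison, and the copper content of the medium is not given in the labels.

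Chlamydomonas can carry electrons from the cytochrome b6f complex to photosystem I with either of a pair of soluble proteins. Plastocyanin, a copper protein, serves when copper is present, and cytochrome c6, a haem protein, takes its place when copper is scarce. The switch is governed by the transcription factor CRR1, which in copper-deficient cells also turns on copper transporters and oxygen-dependent enzymes of tetrapyrrole synthesis. CYC6, CPX1 and CRD1 are therefore used as reporters of copper deficiency, and their RNA is lower in copper-replete cells. PCY1 and CYC6 are also members of the photosynthetic electron transport chain, and CPX1, CRD1 and CTH1 of the chlorophyll synthesis pathway.

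Levels are given in FPKM, in which fragments are scaled to transcript length and to library size, so they are already per length and may be compared between genes. The level of a gene in bulk RNA cannot separate fewer transcribing cells from less RNA per cell. In order of mean level over the 6 libraries, the genes were PCY1, CTH1, CPX1, CRD1, CRR1, CTR1, CTR2 and CYC6. PCY1 ranked 5 among all genes of the table, CTH1 322 and CPX1 587. CRD1 ranked 757, CRR1 1671, CTR1 4800, CTR2 4914 and CYC6 15367. The ranges of CPX1 and CRD1 overlapped across libraries, as did those of CTR1 and CTR2. All other neighbours in this order had ranges that did not overlap. CPX1 was nevertheless above CRD1 in each of the 6 libraries, whereas CTR1 was above CTR2 in 4 of 6. Only CYC6 had a mean under 1 FPKM, and it was also the only one of the 8 listed at 0 in any library.

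No difference between 1000 and 6 µM Mn in any of the 8 genes passed the threshold of 0.05 on the adjusted p (limma, on log2(FPKM + 1)). The test covered the 12543 genes that averaged 1 FPKM or more, 7 of the 8 among them, and it called 0 genes (0%). The p values were adjusted by Benjamini and Hochberg's method over all of those genes, and 354 genes (2.82%) had an unadjusted p under 0.05. Of the 7 tested genes, 6 had a higher mean at 1000 µM and 1 a lower one. Over all tested genes, 53.7% had a higher mean. The median log2 difference of the 7 was 0.17, beside 0.01 over all tested genes. Of the 677 genes that averaged 100 FPKM or more, a class that holds PCY1, CTH1 and CPX1, 81.2% had a higher mean at 1000 µM. Their median log2 difference was 0.09. When all libraries were scaled to the same FPKM total, this share became 50.8% and this median 0.0013. That scaling also moved the median over all tested genes from 0.01 to -0.06. With quantile normalization the share among the abundant genes was 47.4% and their median -0.0080.

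**Figure D1:**
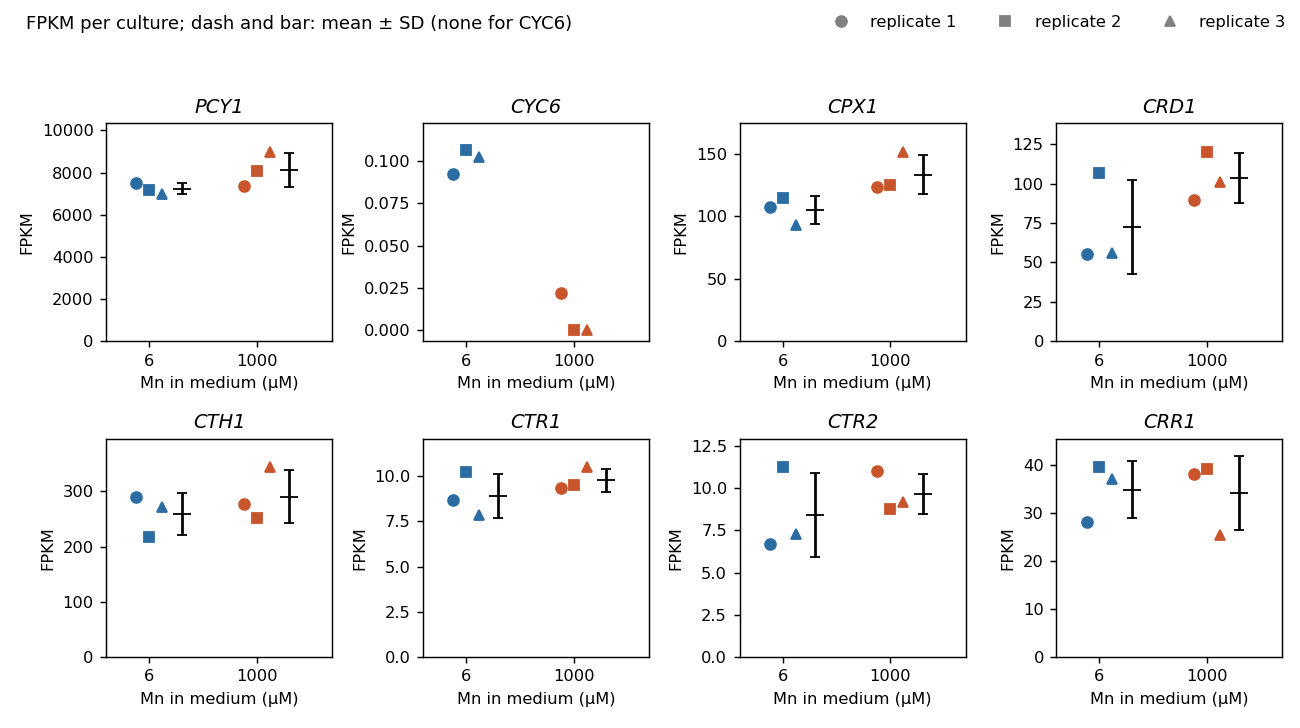
FPKM (vertical axis, linear, a separate scale for each gene) of the 8 genes against the manganese level (µM), with 1 marker per culture and, except for CYC6, the mean ± SD of 3 cultures beside them. The groups separate for CPX1, with 92.9 to 115 FPKM at 6 µM and 123 to 152 at 1000 µM, and for CYC6 at levels near 0, and they overlap for the other 6 genes.

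Plastocyanin RNA was among the most abundant in the cells at both manganese levels. PCY1 (Cre03.g182551.v5.5, chromosome 3, 5197561 to 5198678), which encodes the copper protein of the thylakoid lumen, stood at 7505, 7171 and 7000.2 FPKM in 6 µM replicates 1, 2 and 3. It stood at 7371, 8051 and 8982 FPKM in 1000 µM replicates 1, 2 and 3. The groups overlapped, since 1000 µM replicate 1 lay below 6 µM replicate 1, and the highest library exceeded the lowest 1.28-fold. The means were 7225 ± 257 and 8135 ± 809 FPKM (SD, n = 3 each). The log2 difference was 0.17, with a 95% interval from -0.10 to 0.44, which corresponds to 0.931-fold to 1.35-fold (limma adjusted p = 1.00). Here and below, folds are of FPKM itself, with the added 1 removed at the 6 µM level of the gene, so for low genes they differ from 2 raised to the log2 difference. With quantile normalization the difference was 0.03, and after scaling all libraries to the same FPKM total it was 0.08. PCY1 held between 0.997% and 1.30% of the summed FPKM of a library.

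Cytochrome c6 RNA was at the edge of what the libraries held. CYC6 (Cre16.g651050.v5.5, chromosome 16, 1238558 to 1240109) was listed at 0.0920, 0.106 and 0.102 FPKM in 6 µM replicates 1, 2 and 3. It was listed at 0.0222 FPKM in 1000 µM replicate 1 and at 0 in replicates 2 and 3. All 3 libraries at 6 µM lay above all 3 at 1000 µM. At 6 µM the mean of PCY1 was 72180 times that of CYC6.

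The low CYC6 values fall on whole steps. For genes that averaged less than 0.15 FPKM, the most frequent ratio between a pair of libraries reflects genes with equal numbers of reads in both, and it yields the relative number of reads behind 1 FPKM. Taking 6 µM replicate 1 as 1, that number was 1.08 and 1.12 in 6 µM replicates 2 and 3, and 1.03, 0.713 and 0.851 in 1000 µM replicates 1, 2 and 3. Scaled in this way, CYC6 came to 4, 5 and 5 times its smallest value in 6 µM replicates 1, 2 and 3, each to within 2.3e-05 of a whole number. That smallest value was the one in 1000 µM replicate 1. If the smallest step is 1 read, CYC6 rested on single-digit read numbers in every library. The step itself may stand for more than 1 read, because the absolute depth is unknown.

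**Figure D2:**
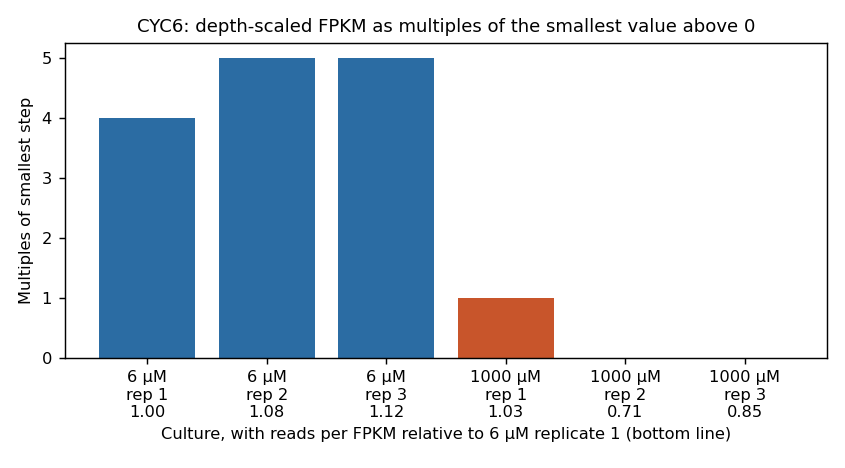
CYC6 level in each culture after scaling by relative depth, as multiples of its smallest value above 0 (vertical axis), with the relative number of reads per FPKM under each culture. The 6 µM cultures stand at 4 or 5 steps, 1000 µM replicate 1 at 1 step and the other two 1000 µM cultures at 0.

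CYC6 was too low for that test, so its difference was taken from the same model fitted to the 16772 genes with a value above 0 in any library. There it was -0.13 on the log2(FPKM + 1) scale, with a standard error of 0.02 (limma unadjusted p = 0.000179, adjusted p = 0.335). That scale compresses such low values, and with a pseudocount of 0.1 in place of 1 the difference was -0.90 (limma adjusted p = 0.239; the alternatives gave 0.122 to 1.00). Across the alternatives the limma unadjusted p of CYC6 ran from 8.3e-05 to 0.0145, the highest without a variance trend. In the fit over the 16772 genes, 0 genes (0%) passed the adjusted threshold and 618 (3.68%) had an unadjusted p under 0.05. No fold is given, because 2 libraries of 1 group were listed at 0. Groups that did not overlap, with the lower values at 1000 µM, were found for 5.32% of the 4229 genes under 1 FPKM. Among the 750 genes within 2-fold of the CYC6 mean the share was 6.40%. Both libraries with CYC6 at 0 were those with the smallest number of reads per FPKM, and the part of depth in the difference was not tested.

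CPX1 was the only one of the 7 tested genes whose groups did not overlap. CPX1 (Cre02.g085450.v5.5, chromosome 2, 1646979 to 1650920) encodes coproporphyrinogen III oxidase, an oxygen-dependent enzyme of haem and chlorophyll synthesis, and CRR1 raises its RNA in copper-deficient cells. It stood at 107, 115 and 92.9 FPKM in 6 µM replicates 1, 2 and 3, and at 123, 125 and 152 FPKM in 1000 µM replicates 1, 2 and 3. Every library at 1000 µM was above every library at 6 µM, which was also true of 4.34% of all tested genes. The means were 105 ± 11.0 and 133 ± 15.8 FPKM (SD, n = 3 each). The log2 difference was 0.34, with a 95% interval from 0.04 to 0.64 (1.03-fold to 1.56-fold), an unadjusted p of 0.0293 and a limma adjusted p of 1.00. Of all tested genes, 1.08% were higher at 1000 µM with an unadjusted p below 0.05.

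After scaling all libraries to the same FPKM total, the groups of CPX1 overlapped and its difference was 0.25 (limma unadjusted p = 0.133). Summed FPKM ranged from 629620 to 767912 between libraries, and the part of this in the difference was not tested. Without 1000 µM replicate 3, the highest library, the difference was 0.25 (limma unadjusted p = 0.0756). Without 6 µM replicate 3, the lowest, it was 0.26 (limma unadjusted p = 0.118). Of 17 alternatives, all from these same libraries, 16 kept the groups of CPX1 apart. In 12 of the 17 the limma unadjusted p was under 0.05, and the lowest adjusted p was 0.351.

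**Figure D3:**
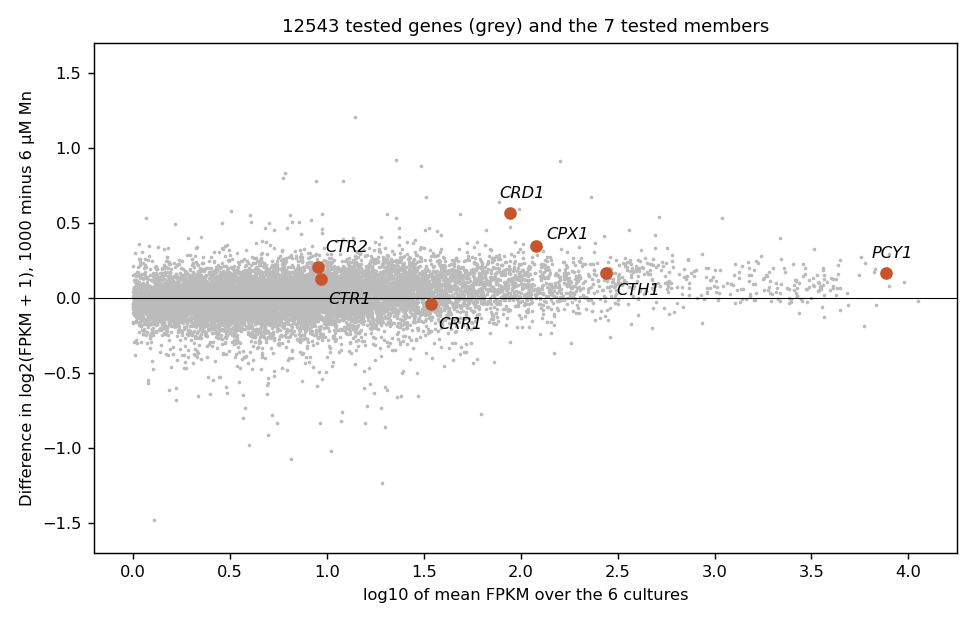
Difference in log2(FPKM + 1) between 1000 and 6 µM Mn (vertical axis) against log10 of the mean FPKM over 6 cultures (horizontal axis), for the 12543 tested genes in grey and the 7 tested members in orange. CRD1 at 0.57 and CPX1 at 0.34 are the highest of the 7, and the other 5 lie between -0.04 and 0.21.

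The aerobic cyclase, which closes the fifth ring of chlorophyll, is encoded in this alga by a pair of related genes. CRD1 is the form that accumulates in copper-deficient or oxygen-poor cells, and CTH1 the form of copper-replete, aerated cells. CRR1 also drives a longer CTH1 transcript in copper deficiency, and the table, with 1 value per gene, does not separate CTH1 transcripts. Reads common to these related genes could have been divided between them.

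CRD1 (Cre07.g346050.v5.5, chromosome 7, 4866866 to 4871395) stood at 55.2, 107 and 55.7 FPKM in 6 µM replicates 1, 2 and 3. It stood at 89.3, 120 and 101 FPKM in 1000 µM replicates 1, 2 and 3. The groups overlapped because of 6 µM replicate 2, which was 1.92 times the mean of the other two 6 µM libraries. The means were 72.5 ± 29.6 and 103 ± 15.5 FPKM (SD, n = 3 each). Its log2 difference was the largest of the 7 tested genes, at 0.57, with a 95% interval from -0.0042 to 1.14, or 0.997-fold to 2.22-fold (limma unadjusted p = 0.0513, adjusted p = 1.00).

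The CRD1 difference depended on which 6 µM libraries entered. Without 6 µM replicate 2 it was 0.88 (limma unadjusted p = 0.000614, adjusted p = 0.387, where the alternatives gave 0.387 to 1.00). Without 6 µM replicate 1 it was 0.41 (limma unadjusted p = 0.151). The within-group SD of CRD1, pooled over both groups, was 0.41 on the log2(FPKM + 1) scale, higher than that of 98.3% of tested genes. For CPX1 that SD was 0.16, at 60.4%, and for PCY1 0.11, at 32.7%.

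CTH1 (Cre12.g510050.v5.5, chromosome 12, 2024726 to 2027967) was above CRD1 in every library. It stood at 289, 217 and 271 FPKM in 6 µM replicates 1, 2 and 3, and at 277, 252 and 344 FPKM in 1000 µM replicates 1, 2 and 3. The groups overlapped, with the highest library at 1000 µM and the lowest at 6 µM. The log2 difference was 0.16, with a 95% interval from -0.20 to 0.53, or 0.870-fold to 1.44-fold (limma adjusted p = 1.00).

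The ratio of CTH1 to CRD1 ranged from 2.03 to 5.25 across libraries. At 6 µM it was 5.25, 4.86 and 2.03 in replicates 1, 3 and 2, and at 1000 µM it was 3.10, 2.10 and 3.40 in replicates 1, 2 and 3. The libraries with the highest CRD1, replicate 2 at either manganese level, had the lowest CTH1, so their ratios were the smallest. On the log2 scale with 1 added to each value, the mean ratio was 1.88 ± 0.75 at 6 µM and 1.48 ± 0.37 at 1000 µM (SD, n = 3 each). The difference of -0.40 gave p = 0.50 in a two-sided exact permutation test, in which 3 libraries against 3 cannot go below 0.10.

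The summed level of both cyclase genes varied less than CRD1 alone. It was 345, 323 and 327 FPKM in 6 µM replicates 1, 2 and 3, and 366, 372 and 445 FPKM in 1000 µM replicates 1, 2 and 3. This sum was chosen after the values were seen. Its groups did not overlap (exact permutation p = 0.10, two-sided, the smallest possible), but they overlapped once each library was scaled to the same FPKM total. They stayed apart with quantile normalization and with any 1 library left out. Genes with groups that do not overlap and a higher mean at 1000 µM made up 4.34% of tested genes.

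The log2 ratio of PCY1 to CYC6, with 1 added to each value, averaged 12.7 ± 0.059 at 6 µM and 13.0 ± 0.16 at 1000 µM (SD, n = 3 each). The difference was 0.29 (exact permutation p = 0.10, two-sided, the smallest possible). Because CYC6 is far below the added 1, the level of this ratio follows PCY1 and the added value. Its difference is the 0.17 of PCY1 minus the -0.13 of CYC6, a part that the added 1 compresses. With a pseudocount of 0.1 the difference in the ratio was 1.07. The groups of this ratio overlapped after scaling to the same FPKM total, after quantile normalization and with a pseudocount of 5.

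**Figure D4:**
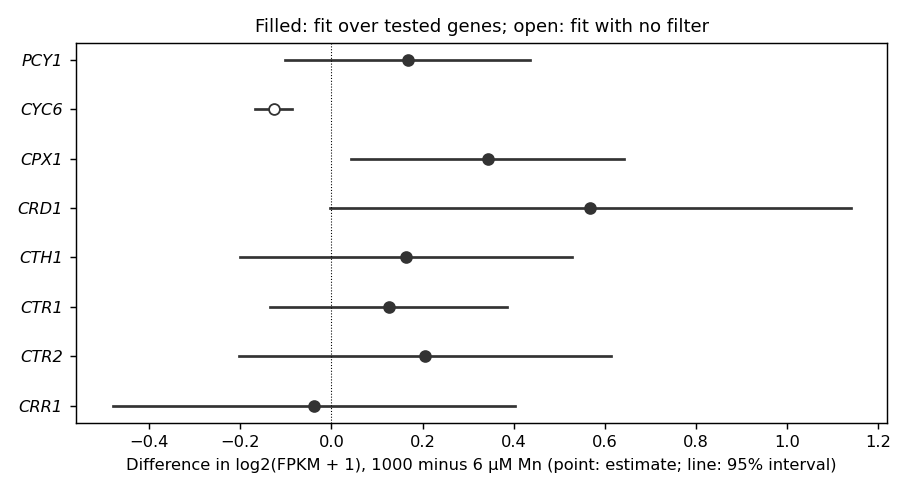
Difference in log2(FPKM + 1) between 1000 and 6 µM Mn (horizontal axis) for each of the 8 genes, with the estimate as a point and its 95% interval from limma as a line, unadjusted for the number of genes. Among the 7 filled points the interval excludes 0 for CPX1 alone. The open point is CYC6, fitted with no filter, where values far below 1 FPKM compress the scale.

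Both copper transporters were measured at moderate levels, between 6.68 and 11.2 FPKM. CTR1 and CTR2 are membrane proteins of the CTR family that take up copper, and their RNA rises in copper-deficient cells through CRR1. CTR1 (Cre13.g570600.v5.5, chromosome 13, 1254126 to 1259806) stood at 8.67, 10.3 and 7.85 FPKM in 6 µM replicates 1, 2 and 3. It stood at 9.34, 9.51 and 10.5 FPKM in 1000 µM replicates 1, 2 and 3. The libraries at 1000 µM fell within a narrower band than those at 6 µM, and the groups overlapped. The log2 difference was 0.13, with a 95% interval from -0.14 to 0.39, or 0.900-fold to 1.34-fold (limma adjusted p = 1.00).

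CTR2 (Cre10.g434350.v5.5, chromosome 10, 2263855 to 2268812) stood at 6.68, 11.2 and 7.26 FPKM in 6 µM replicates 1, 2 and 3. It stood at 11.0, 8.74 and 9.20 FPKM in 1000 µM replicates 1, 2 and 3. The highest library of all was 6 µM replicate 2, so the groups overlapped. The log2 difference was 0.21, with a 95% interval from -0.20 to 0.61, or 0.853-fold to 1.60-fold (limma adjusted p = 1.00). Without 6 µM replicate 2 it was 0.41 (limma unadjusted p = 0.0137, adjusted p = 1.00), and without 6 µM replicate 1 it was 0.076 (limma unadjusted p = 0.684). CTR2 was above CTR1 in 2 of 6 libraries, 6 µM replicate 2 and 1000 µM replicate 1, and the ratio of CTR2 to CTR1 ran from 0.771 to 1.18.

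CRR1, the regulator itself, was measured in every library. CRR1 (Cre09.g390023.v5.5, chromosome 9, 3562194 to 3569138) encodes a DNA-binding protein of the SBP family that acts in the responses to copper deficiency and to low oxygen. It stood at 28.1, 39.5 and 37.0 FPKM in 6 µM replicates 1, 2 and 3, and at 38.1, 39.2 and 25.3 FPKM in 1000 µM replicates 1, 2 and 3. The pair of low libraries came from different manganese levels, and the other 4 lay between 37.0 and 39.5 FPKM. The log2 difference was -0.04, with a 95% interval from -0.48 to 0.40, or 0.709-fold to 1.33-fold (limma adjusted p = 1.00). Its sign was not stable, and without 1000 µM replicate 3 it was 0.16.

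The low CRR1 libraries, 6 µM replicate 1 and 1000 µM replicate 3, are those that also stood apart from the other 4 over all tested genes. Their loadings on the first principal component, which held 57.8% of the variance, were 0.36 and 0.73, while the other 4 lay between -0.38 and -0.11. Differences were taken for the pair, which these same values picked, and for the remaining 4 libraries separately. Inside the pair the difference is 1 library minus 1 library, with no spread. The loadings also differ inside the pair, so the split does not remove this component. For CRD1 the difference was 0.86 inside the pair and 0.42 among the other 4, and for CPX1 0.49 and 0.27. For PCY1 it was 0.26 and 0.12, and for CTH1 0.25 and 0.12. For CTR1 it was 0.25 and 0.06, for CTR2 0.41 and 0.10, and for CRR1 -0.14 and 0.01. For CYC6 both values were -0.13.

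**Figure D5:**
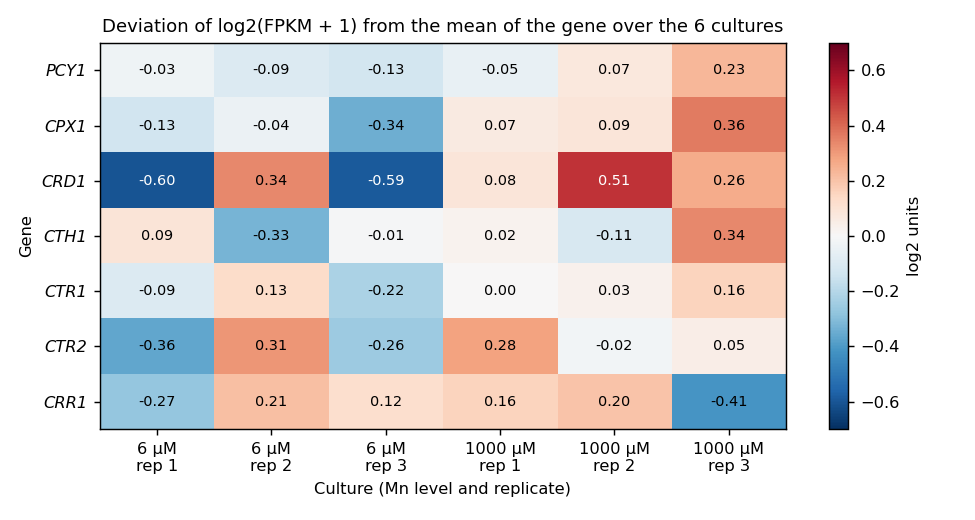
Deviation of log2(FPKM + 1) from the mean of each gene over 6 cultures (colour and printed value, log2 units), for the 7 tested genes in rows and the cultures in columns. CRD1 is lowest in 6 µM replicates 1 and 3, at -0.60 and -0.59, and CRR1 is lowest in 6 µM replicate 1 and 1000 µM replicate 3, at -0.27 and -0.41.

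Within the 6 µM cultures, 5 of the 7 tested genes, namely CRR1, CPX1, CRD1, CTR1 and CTR2, were each highest in replicate 2. PCY1 and CTH1 were highest in replicate 1. This pattern was noticed after the values were seen, and 33.7% of all tested genes were highest in 6 µM replicate 2. That library also had the largest summed FPKM of the 6 µM cultures (719323). As a share of summed FPKM, CPX1 was highest in replicate 1, at 0.0171% against 0.0159% in replicate 2. CRR1, CRD1, CTR1 and CTR2 stayed highest in replicate 2, CRR1 at 0.00549% against 0.00543% in replicate 3. The excess of replicate 2 over the mean of replicates 1 and 3 was 0.93 log2 units for CRD1, 0.62 for CTR2 and 0.28 for CTR1. It was 0.28 for CRR1 and 0.20 for CPX1, and for CTH1 the value was -0.37. CYC6 was also listed highest there, at 0.106 FPKM, but at the same 5 steps as in replicate 3. The pattern did not extend to the 1000 µM cultures. There CRR1 and CRD1 were highest in replicate 2, CTR2 in replicate 1, and CPX1 and CTR1 in replicate 3, where CRR1 was lowest.

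The gene whose profile over the 6 libraries was closest to each tested gene was found by the root mean square difference of centred log2(FPKM + 1) values. For CRD1 it was Cre06.g284250.v5.5 on chromosome 6 (5433613 to 5437765), at 0.10 log2 units, beside a root mean square deviation of 0.44 for CRD1 itself. That gene stood at 43.5, 91.6 and 39.0 FPKM at 6 µM and at 65.0, 84.5 and 73.8 FPKM at 1000 µM, in replicates 1, 2 and 3. It remained the closest to CRD1 in 10 of 12 alternative settings. For CRR1 the closest was Cre07.g325755.v5.5 on chromosome 7 (1977115 to 1979183), at 0.02 beside 0.25 for CRR1 itself. It stood at 50.2, 69.5 and 65.4 FPKM at 6 µM and at 65.7, 66.8 and 45.3 FPKM at 1000 µM, and was the closest in 6 of 12 settings.

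For CTR2 the closest was Cre10.g442800.v5.5, at 0.08 beside 0.25 for CTR2 itself, again in 6 of 12 settings. For CPX1 it was Cre01.g003850.v5.5, at 0.06 beside 0.21, in 3 of 12 settings. For CTH1 it was Cre16.g688414.v5.5, at 0.02 beside 0.20, in 2 of 12 settings. PCY1 and CTR1 had Cre03.g145007.v5.5 and Cre09.g392060.v5.5 as their closest, each in 1 of 12 settings. Some gene is always the closest, and the settings share the same libraries. No closest gene, that of CRD1 included, is therefore singled out as a partner.

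The intervals of the main fit bound the changes given the spread between these flasks of 1 inoculum. For PCY1, CTH1, CTR1 and CRR1 they excluded changes of 1.5-fold or more in FPKM, up or down, and for CPX1 and CTR2 they excluded changes of 2-fold or more. The interval of CRD1 reached past 2-fold upward. These intervals are unadjusted for the number of genes, and the bounds are given for the main fit alone. Without 6 µM replicate 1 the estimates moved to 0.25 for CTH1 and to -0.18 for CRR1.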

How the data were processed

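FPKM values, 1 per gene in each library, are what the authors deposited. Per the submitters' processing notes, the tools included CASAVA, STAR and Cuffdiff 2.2.1. For their settings, the build, filters and library normalization, nothing is given in the sources used here. The absolute depth is unknown, so no counting intervals or floors are given, and a gene at 0 is said only to be listed at 0. Replicates are separate flasks from 1 inoculum, so p-values measure the spread between such flasks.

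The 8 members, the tests and the alternatives were chosen with earlier results of these data known. Gene symbols come from the rule that defines the members. Positions are 1-based, from RefSeq's genes of the assembly Chlamydomonas_reinhardtii_v5.5, which matched 17738 of 17741 identifiers by locus tag. That table repeats the locus tag in place of a symbol and holds no synonyms, so the 23 other copper-related genes listed by symbol could not be matched and are not analysed here. Columns were assigned by manganese level and replicate number in the sample titles.

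Values were tested two-sided as log2(FPKM + 1) with limma 3.58.1 in R 4.3.3 (eBayes with a trend), for genes averaging 1 FPKM or more, with Benjamini-Hochberg adjustment over all of them and 95% intervals. CYC6, below that minimum, was taken from the fit over all genes above 0 in any library. The test was checked on simulated data with independent noise and shifts larger than the difference of any member. That check does not speak to differences as small as those reported here. Ratios between genes were compared by exact permutation (scipy 1.17.1). Named genes were the 8 members and, for each tested member, the gene with the closest profile. Alternatives were other pseudocounts, minimum levels, scalings, variance models and weights, a replicate block, and libraries left out. Figures were drawn with matplotlib 3.10.9.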

Additional observations from a re-analysis of the deposited data

How the results depend on the processing

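In every alternative run, none of the 8 genes passed an adjusted p of 0.05 in limma, and CYC6, PCY1, CPX1, CRD1, CTH1, CTR1 and CTR2 kept their direction, as did both ratios and the summed cyclase level. CRR1, at -0.04, turned to 0.074 with library quality weights and to 0.01 without both 6 µM replicate 1 and 1000 µM replicate 3. With 1 library left out it ranged from -0.18 to 0.16, and it was positive without 1000 µM replicate 3 (0.16), 6 µM replicate 2 (0.06) and 6 µM replicate 3 (0.01). The count of genes called over the whole table, 0, became 26 with library quality weights, where 1000 µM replicate 1 weighed 6.58. It became 2 with the same FPKM total per library and 3 without both libraries that stood apart. It ranged from 0 to 2 with 1 library left out, at 2 without 6 µM replicate 1 and 1 without 1000 µM replicate 3. With 1 library left out, the difference of CPX1 ranged from 0.25 to 0.41, that of CRD1 from 0.41 to 0.88, that of CTR2 from 0.08 to 0.41 and that of PCY1 from 0.09 to 0.24. That of CTR1 ranged from 0.05 to 0.22 and that of CTH1 from 0.04 to 0.26. The difference in the ratio of CTH1 to CRD1 ranged from -0.84 without 6 µM replicate 2 to -0.16 without 6 µM replicate 1. Libraries with the same number deviated from their groups with correlations of -0.40, 0.51 and -0.50 across genes, and were not taken as paired. With a replicate block 0 genes passed, CPX1 had an unadjusted p of 0.0661 and CRD1 of 0.0115, with differences still 0.34 and 0.57. For all of these shifts, the cause was not tested. Depth limits statements on CYC6.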
